A study of Mus musculus with 6 samples.

Results

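Transcripts of the pituitary hormones other than growth hormone and prolactin, and of the factors and receptors that mark the cells making them, were followed through sorted mouse somatotropes and lactotropes. The set held 10 genes out of 22869 with a symbol in the table: Pomc, Tbx19, Crhr1 and Pax7 of the corticotrope and melanotrope lineages, Lhb, Fshb, Gnrhr and Nr5a1 of the gonadotrope lineage, Tshb of the thyrotrope lineage, and Cga, which gonadotropes and thyrotropes share. They were chosen by symbol, and where a gene had several transcript rows (only Tshb, with 3) its most abundant row, by the mean of the 6 libraries, was taken. All 10 had a row, and 8 had a mean of at least 1 FPKM (fragments scaled to transcript length and to the mapped fragments of the library) and entered the test. Nr5a1 and Pax7 stayed below that level and are described by their values.

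The cells came from pituitaries of female CD1 x C57BL/6 hybrid mice, 6 to 8 weeks old. FACS (fluorescence-activated sorting) had parted them into somatotropes, which secrete growth hormone (Gh), and lactotropes, which secrete prolactin (Prl). Each cell type had 3 libraries, numbered as biological replicates 1 to 3. The labels name no transgene, marker or gate for the sort and do not say how many animals went into a library, so p-values reflect only how far these libraries spread, which may be technical. The series has no library of sorted corticotropes, gonadotropes or thyrotropes among those analysed here to set these levels against.

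The anterior pituitary holds several hormone-secreting cell types. Corticotropes cut adrenocorticotropic hormone (ACTH) out of the precursor pro-opiomelanocortin, the product of Pomc, and melanotropes of the intermediate lobe cut the same precursor further, to melanocyte-stimulating hormone. Luteinizing hormone, follicle-stimulating hormone and thyroid-stimulating hormone are glycoprotein dimers that share the alpha subunit encoded by Cga and differ in the beta subunit encoded by Lhb, Fshb or Tshb. Thyrotropes, somatotropes and lactotropes depend on the factor Pou1f1, while corticotropes and melanotropes depend on Tbx19 and gonadotropes on Nr5a1.

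The sequence upstream of the start site is shown for Pomc and Cga, the most abundant members, and in short stretches for Lhb, because 2 of the members (Nr5a1 and Tbx19) are factors known to act on hormone gene promoters. All 3 come from RefSeq on GRCm38.p6, plus strand, written 5′ to 3′, and all matched motifs are in capitals. Pomc is shown at chr12:3954695-3954944 and Cga at chr4:34893529-34893778, each the 250 bases before the start, and Lhb at chr7:45420806-45420835 and chr7:45420881-45420910, 30 bases each.
Pomc: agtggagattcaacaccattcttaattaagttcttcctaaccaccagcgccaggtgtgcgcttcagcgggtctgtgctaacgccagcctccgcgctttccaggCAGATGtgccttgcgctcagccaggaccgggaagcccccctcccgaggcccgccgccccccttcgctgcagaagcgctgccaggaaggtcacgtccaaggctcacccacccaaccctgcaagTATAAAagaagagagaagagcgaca
Cga: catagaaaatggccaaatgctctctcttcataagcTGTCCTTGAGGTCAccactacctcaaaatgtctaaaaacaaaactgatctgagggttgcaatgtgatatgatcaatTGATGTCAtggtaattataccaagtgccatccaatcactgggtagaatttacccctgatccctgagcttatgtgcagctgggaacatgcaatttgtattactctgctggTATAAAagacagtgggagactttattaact
Lhb, distal: cctggcttcccTGACCTTGtctgtgtctcg
Lhb, proximal: acttagTGGCCTTGcCACCCCCACaacccg
The motifs searched, on both strands, were TATAAA for the TATA box, CAAGGNCA for Nr5a1, CNCCCCCNC for Egr1, TGANGTCA for the cyclic AMP element, TCACACC for the site of T-box factors such as Tbx19, and CAGATG for the E-box of NeuroD factors. Pomc held a TATA box from base -25 and an E-box from base -147, counted back from the start site. Cga held a TATA box from base -30, an Nr5a1 match from base -215 that overlaps a cyclic AMP element match from base -209, and a further cyclic AMP element match from base -139. Lhb held Nr5a1 matches from bases -129 and -59, the second beside an Egr1 match from base -50, and a TATA box from base -31 that is not printed. Fshb, Gnrhr and Tshb also held the TATA motif, Gnrhr the E-box motif, and Crhr1 and Pax7 the Egr1 motif. Some windows before the RefSeq start held annotated exons of their own gene, those of Lhb, Pax7, Fshb and Tshb. For Lhb the stretch free of exons ended at base 45420819 of chromosome 7. The proximal stretch and part of the distal one lie past that base. The Pax7 window had no stretch before its exon. Of 32817 promoter windows of the same length, 12.4% held the TATA motif, 5.53% the Nr5a1 motif, 17% the Egr1 motif, 7.49% the cyclic AMP motif, 3.33% the T-box motif and 14.5% the E-box motif. Of the 10 members, 9 had an entry in the promoter table. Besides Cga and Lhb, none of these 9 windows held the Nr5a1 motif, and none held the T-box motif. Only the 250 bases before each start were searched, so sites further upstream could not be found.

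Some libraries stood apart. Libraries with the same number shared deviations from the mean of their cell type (correlation over genes 0.341 to 0.763). Between libraries with different numbers the correlations were -0.631 to 0.233. The highest of these, somatotrope 3 with lactotrope 2, was not far below the 0.341 of pair 3. In lactotrope 3, 14.9% of tested genes were listed at 0, and elsewhere 0.232% to 2.95%. In somatotropes 2 and 3 and lactotrope 3, 34.0%, 32.2% and 26.3% of values had 5 decimals, against 0% in the other 3 libraries. No source used here says what was done differently to those columns. For both reasons a 0 is given as listed and not as absence. Between 11318 and 18592 genes lay above 0 in a library. The deposited values give no fragment totals. Trial depths were scanned for the one that put olfactory receptor genes with 1 exon closest to whole fragments. Multiples of a depth also fit, so the smallest that fitted was taken. In replicate 1, 99.1% of the 212 values used from somatotrope 1 and 95.7% of the 23 from lactotrope 1 then lay on whole fragments (tolerance 0.1). The depth was chosen for this fit, so these shares do not test it. The depths estimated in this way were about 29300000 fragments for somatotrope 1 and 17700000 for lactotrope 1. No depth could be recovered for the other 4 libraries. At these depths and GENCODE M21 transcript lengths, the lowest value of a tested member in replicate 1, that of Crhr1 in somatotrope 1, rests on about 34.5 fragments.

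Gh made up 9.95% to 27.4% of the FPKM sum over genes in somatotropes and Prl 12.1% to 53.0% in lactotropes. Each cell type also held the other's hormone: Prl took 3.38%, 4.47% and 11.3% of the sum in the somatotropes, in replicate order, and Gh 0.944%, 3.30% and 2.71% in the lactotropes. Somatotrope 3 thus had the highest Prl share of the somatotropes, and its Prl level of 24481 FPKM was close to the 25171 FPKM of lactotrope 2. The 10 members together took 0.167%, 0.787% and 3.52% of that sum in the 3 somatotrope libraries, in order of replicate, and 0.409%, 0.334% and 0.266% in the 3 lactotrope libraries. Somatotrope 3, the somatotrope library with the most Prl, carried the largest share, and somatotrope 1 the smallest. The part of lactotrope RNA in the members' levels there was not tested.

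Pomc, the ACTH precursor, was the most abundant member on average. In somatotropes 1 to 3 it stood at 93.6, 1209 and 5758 FPKM, and at 853, 553 and 425 FPKM in lactotropes 1 to 3. The lactotrope libraries lay within a 2.01-fold range, while the somatotropes spread over 61.5-fold and enclosed all 3 lactotropes. In somatotrope 3 the Pomc level was 13.3% of the Gh level of the same library, and in somatotrope 1 it was 0.110%. Pomc ranked above at least 98.7% of the 22869 genes in each library. The log2 difference, somatotrope minus lactotrope, on the log2(FPKM + 1) scale was 0.57 (SE 1.16, 95% interval -1.92 to 3.06). Its spread within the cell types, with an SD of 2.15 on the log2 scale, was larger than that of 99.3% of the tested genes, whose median was 0.868. In mm9 the row covers chromosome 12 from 3954951 to 3960618 on the plus strand.

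Tbx19, the T-box factor that drives Pomc transcription in corticotropes and melanotropes, was far lower. Its values were 1.16, 3.48 and 10.3 FPKM in somatotropes 1 to 3 and 15.4, 0.513 and 0.0038 FPKM in lactotropes 1 to 3. The highest and the lowest of the 6 libraries were both lactotropes, so the groups overlapped completely. Its log2 difference was 0.71 (SE 1.03, 95% interval -1.51 to 2.93). Tbx19 (chromosome 1, 167067984 to 167090904, minus strand) and Pomc did not keep a fixed ratio: Pomc was 55.4 times Tbx19 in lactotrope 1 and 81.0 times in somatotrope 1, but 347, 561 and 1077 times in somatotropes 2 and 3 and lactotrope 2. In lactotrope 3 Pomc stood at 425 FPKM while Tbx19 was almost at 0, in the library that lists the most genes at 0.

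Crhr1, the receptor through which corticotropin-releasing hormone stimulates corticotropes, followed Tbx19 closely. It stood at 0.479, 1.01 and 4.69 FPKM in somatotropes 1 to 3, at 6.33 and 0.658 FPKM in lactotropes 1 and 2, and was listed at 0 in lactotrope 3. As for Tbx19, the highest library was lactotrope 1 and the next was somatotrope 3. The log2 difference of Crhr1 was 0.16 (SE 0.85, 95% interval -1.68 to 2.00). With each gene centred on its own mean, the root mean square difference between Tbx19 and Crhr1 over the 6 libraries was 0.527 on the log2(FPKM + 1) scale, which made Crhr1 the second most alike of all tested genes to Tbx19. Counted from Crhr1, Tbx19 came in place 24. The Crhr1 row covers chromosome 11 from 103994196 to 104036832 on the plus strand.

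Pax7, the factor that sets melanotropes apart from corticotropes, was at or near 0 in every library. It was listed at 0 in somatotrope 1 and in lactotropes 1 and 3, and reached 0.0389 FPKM in somatotrope 2, 0.127 FPKM in somatotrope 3 and 0.0133 FPKM in lactotrope 2. The highest Pax7 value and the highest Pomc value were in the same library, somatotrope 3, but the Pax7 level there is too low to enter the test. The row lies on chromosome 4 from 139293996 to 139388883, minus strand.

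**Figure D1:**
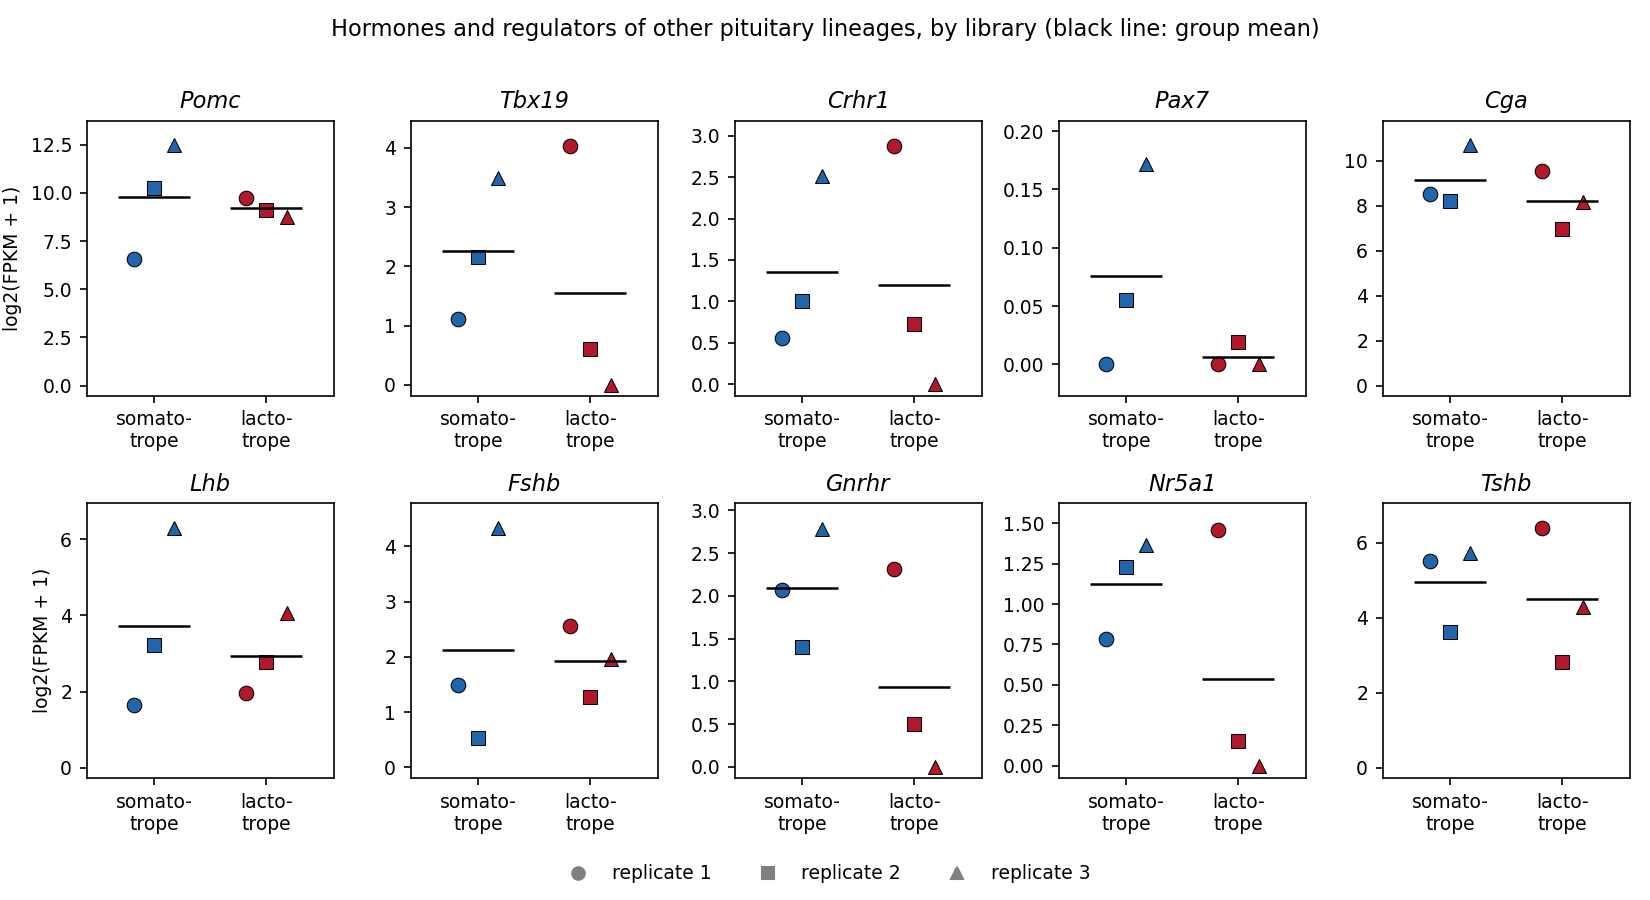
log2(FPKM + 1) of the 10 genes in each of the 6 libraries, grouped by cell type. Each replicate number has its own symbol, with a black line at the group mean and a separate vertical scale in each panel. Replicate 3 (triangle) is the highest somatotrope library in every panel, and replicate 1 (circle) is the highest lactotrope library for Pomc, Tbx19, Crhr1, Cga, Fshb, Gnrhr, Nr5a1 and Tshb.

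Cga, the shared alpha subunit, was the second most abundant member. In somatotropes 1 to 3 it stood at 369, 297 and 1675 FPKM, and at 739, 126 and 285 FPKM in lactotropes 1 to 3. Somatotrope 3 was highest and lactotrope 2 lowest, and the other 4 libraries of both cell types were interleaved. The somatotrope mean was 780 ± 776 FPKM and the lactotrope mean 383 ± 318 FPKM (SD, n = 3 each), and the log2 difference was 0.93 (SE 0.83, 95% interval -0.87 to 2.72). Cga ranked above at least 99.6% of genes in each library. Its row covers 34841028 to 34854623 of chromosome 4 (plus strand).

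Lhb, the luteinizing hormone beta subunit, had 2.15, 8.37 and 77.7 FPKM in somatotropes 1 to 3 and 2.90, 5.91 and 15.8 FPKM in lactotropes 1 to 3. Replicate 1 was lowest and replicate 3 highest in both cell types, and the somatotropes spread over a 36.1-fold range that enclosed the lactotropes. Its log2 difference was 0.79 (SE 1.00, 95% interval -1.38 to 2.95). The row covers chromosome 7 from 52676316 to 52677224, plus strand.

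Fshb, the follicle-stimulating hormone beta subunit, had 1.82, 0.451 and 19.1 FPKM in somatotropes 1 to 3 and 4.91, 1.42 and 2.90 FPKM in lactotropes 1 to 3. Somatotrope 3 stood well above the rest, and the other 2 somatotropes lay below or among the lactotropes. The log2 difference was 0.19 (SE 0.93, 95% interval -1.83 to 2.20). Fshb (chromosome 2, 106896298 to 106899808, minus strand) did not keep a fixed ratio to Lhb, which ranged from 0.590 times Fshb in lactotrope 1 to 18.6 times in somatotrope 2.

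Gnrhr, the receptor for gonadotropin-releasing hormone on gonadotropes, stood at 3.20, 1.64 and 5.91 FPKM in somatotropes 1 to 3, at 3.99 and 0.413 FPKM in lactotropes 1 and 2, and was listed at 0 in lactotrope 3. It had the largest log2 difference of the tested members, 1.15 (SE 0.79, 95% interval -0.55 to 2.85). Lactotrope 1 lay above 2 of the 3 somatotropes, so the groups overlapped. Gnrhr lies on chromosome 5 from 86611023 to 86626895, minus strand.

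Nr5a1, also known as steroidogenic factor 1, the nuclear receptor on which gonadotropes depend, had levels in somatotropes 1 to 3 of 0.719, 1.35 and 1.57 FPKM, reached 1.75 and 0.111 FPKM in lactotropes 1 and 2, and was listed at 0 in lactotrope 3. Its mean over the libraries, 0.917 FPKM, kept it just outside the test. Lactotrope 1 was above all 3 somatotropes and the other lactotropes were below them, as for Tbx19. The Nr5a1 row covers chromosome 2 from 38548180 to 38570062, minus strand.

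Tshb, the thyroid-stimulating hormone beta subunit, had 44.5, 11.2 and 52.4 FPKM in somatotropes 1 to 3 and 83.6, 6.11 and 18.5 FPKM in lactotropes 1 to 3. Its means were nearly the same, with a somatotrope mean of 36.0 ± 21.8 FPKM and a lactotrope mean of 36.1 ± 41.6 FPKM (SD, n = 3 each). Replicate 2 was lowest in both cell types. The log2 difference was 0.45 (SE 0.85, 95% interval -1.39 to 2.29). The 3 Tshb rows share the same span, 102581321 to 102586637 of chromosome 3 (minus strand), and their means were 36.1, 33.4 and 31.3 FPKM.

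Among the beta subunits, Tshb was higher than Lhb in 5 of 6 libraries, all but somatotrope 3, by margins that differed widely. In lactotrope 2 this depended on the Tshb row used. The less abundant rows had 5.63 and 5.27 FPKM there, below the 5.91 FPKM of Lhb. Tshb was 20.7 times Lhb in somatotrope 1 and 28.9 times in lactotrope 1, but 0.674 to 1.34 times Lhb in the other 4 libraries. Cga, in contrast, stayed in a narrow proportion to the 3 beta subunits added together: in replicate order, 7.61, 14.8 and 11.2 times their sum for somatotropes, and 8.09, 9.37 and 7.65 times for lactotropes. These ratios spread over 1.95-fold, while Cga itself spread over 13.3-fold, Tshb over 13.7-fold, Lhb over 36.1-fold and Fshb over 42.4-fold. Among ratios of single genes, Cga over Tshb spread over 3.86-fold and Tshb over Fshb over 9.10-fold. The spread of such ratios over other genes was not computed. FPKM is per length and both sides of each ratio come from 1 library, so the ratios do not depend on the scaling between libraries. The levels of single genes do. The groups overlapped in the ratio of Cga to the summed beta subunits too.

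**Figure D2:**
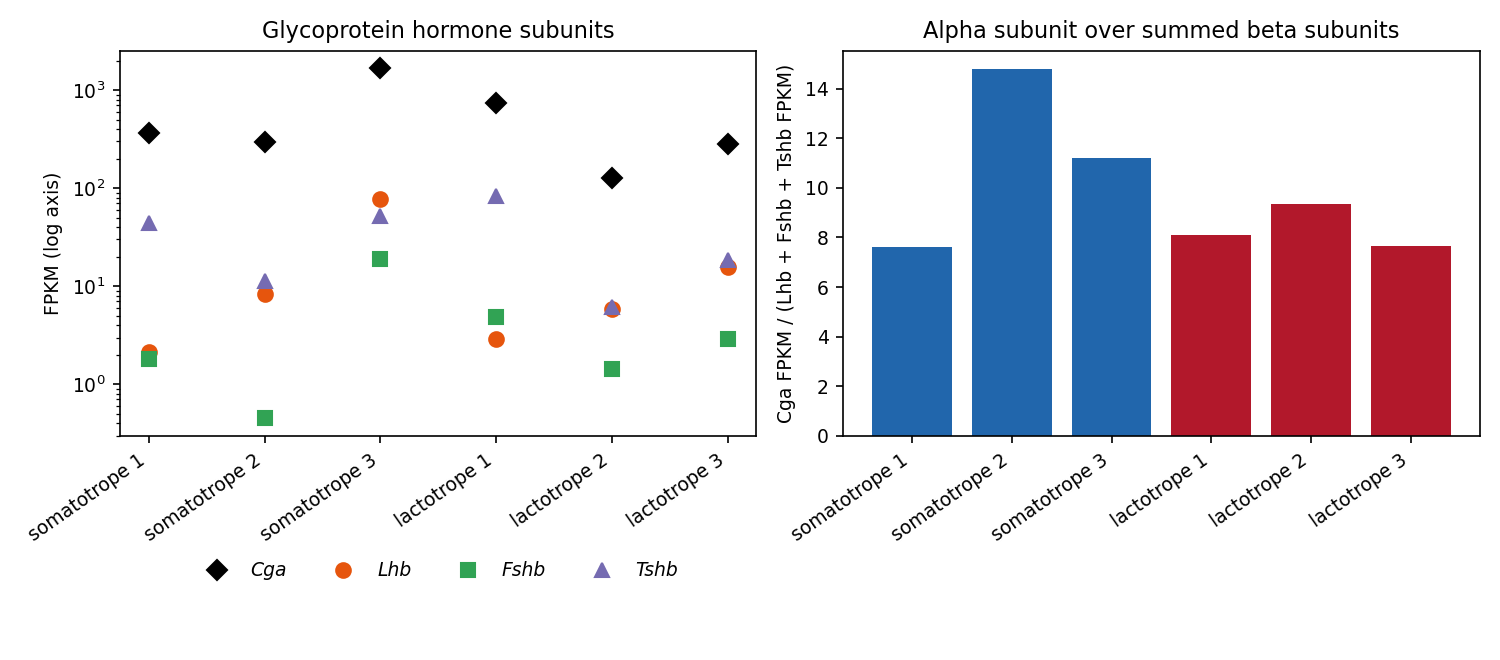
Left, FPKM of the alpha subunit gene Cga and the beta subunit genes Lhb, Fshb and Tshb in each library, on a log axis. Right, bars from 0 of the Cga level over the sum of the 3 beta subunit levels, blue for somatotropes and red for lactotropes. Tshb lies far above Lhb in replicate 1 of both cell types and near it elsewhere, while the ratio of Cga to the summed beta subunits stays between 7.61 and 14.8.

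The order of the levels was similar in both cell types. On the mean of log2(FPKM + 1) it ran Pomc, Cga, Tshb, Lhb, Tbx19, Fshb, Gnrhr, Crhr1, Nr5a1 and Pax7 in somatotropes, and in lactotropes Fshb stood before Tbx19 and Crhr1 before Gnrhr. Only the step from Cga to Tshb, of 4.20 in somatotropes and 3.72 in lactotropes, was larger than the SD of both neighbours in both cell types. The step from Nr5a1 to Pax7 exceeded it in somatotropes alone. All other neighbours differed by less than the larger of their SDs, among them Pomc and Cga, which were 0.61 apart in somatotropes and 0.97 in lactotropes. Pomc and Cga stood first and second in both.

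The comparison the design implies asks which of these genes differed between sorted somatotropes and lactotropes. None of the 8 tested members passed limma's test over the 11642 tested genes (adjusted p = 1.00 for each), with 0% of all tested genes called. With the replicate number as a block, 0% were again called and the smallest adjusted p among the members was 0.484, that of Gnrhr. At an unadjusted p under 0.05, 0 of 8 members and 0.962% of all tested genes passed in limma without the block, and 0 of 8 members and 10.9% with it. Under other settings more members fell below that unadjusted level. With array weights, in a weight estimate that stopped before it converged, 6 of 8 members and 1266 of 11642 genes did. Without replicate 1 of both cell types, 3 of 8 members and 524 of 10240 genes did. The count was 2 of 8 without somatotrope 1 (325 of 11275 genes) and 2 of 8 without lactotrope 1 (633 of 11290 genes). The 3 libraries of one cell type lay apart from the 3 of the other for 0 of the 10 members, and for 3.66% of the tested genes (2.51% with the somatotropes on top, 1.15% with the lactotropes on top). The log2 differences were above 0 for 8 of 8 members and for 64.8% of all tested genes, with a median of 0.64 against 0.18 over all tested genes, which was 0.50 against 0.04 after median-ratio scaling. Without somatotrope 3, 4 of 8 members were above 0 and their median was -0.18, against 0.38 over all tested genes. The direction of the members' median thus turned with that library. Each of the 8 intervals given above includes 0. In bulk libraries, fewer cells of a type and less RNA per cell cannot be told apart.

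Within replicate pairs the members moved together, and the direction turned between pairs. In pair 1 all 8 tested members were lower in the somatotrope library than in the lactotrope library (49.6% of tested genes). The differences on the log2(FPKM + 1) scale ran from -0.25 for Gnrhr and -0.31 for Lhb through -0.89 for Tshb, -1.07 for Fshb and -2.31 for Crhr1 to -2.93 for Tbx19 and -3.17 for Pomc, and Cga was 2.00 times as high in the lactotrope. In pair 2, 7 of 8 were higher in the somatotrope library (56.9% of tested genes), with differences from 0.28 for Crhr1 to 1.57 for Tbx19. Fshb was the exception, at -0.74. In pair 3 all 8 were higher in the somatotrope library (64.9% of tested genes), from 1.45 for Tshb and 2.23 for Lhb to 3.49 for Tbx19 and 3.76 for Pomc. Pomc was thus 9.11 times as high in the lactotrope of pair 1, and 2.19 and 13.6 times as high in the somatotropes of pairs 2 and 3. Nr5a1, outside the test, went the same way as the 7, at -0.68, 1.08 and 1.36. The turn from lactotrope in pair 1 to somatotrope in pair 3 was shown by 8 of 8 tested members and by 30.1% of tested genes.

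**Figure D3:**
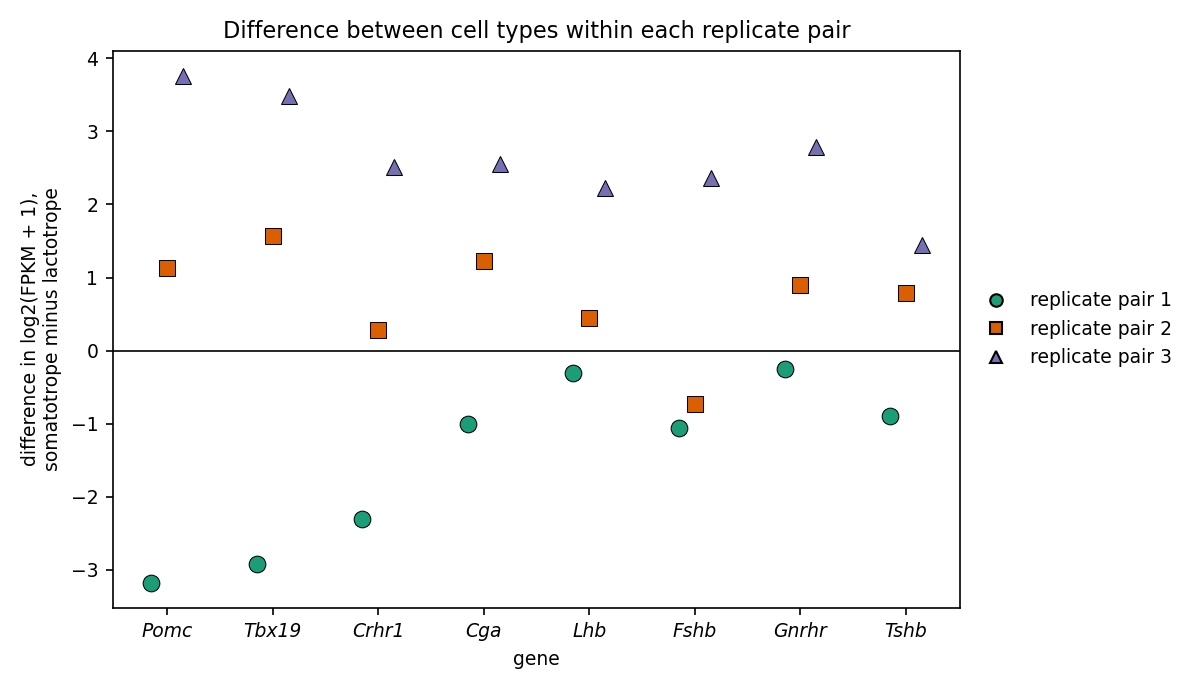
Difference in log2(FPKM + 1), somatotrope minus lactotrope, of the 8 tested genes within each of the 3 replicate pairs, with 1 symbol and colour per pair and a line at 0. All 8 lie below 0 in pair 1 and above 0 in pair 3, and in pair 2 Fshb alone lies below 0.

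Among the somatotropes, replicate 3 was the highest library for all 8 tested members, a place it took for 10.7% of tested genes. Over the 6 libraries, somatotrope 3 was highest for 5 of 8 members (5.2% of tested genes) and lactotrope 1 for the other 3, Tbx19, Crhr1 and Tshb (32.9% of tested genes). The direction within each pair, and the place of somatotrope 3 above the other somatotropes, held for the same number of members after median-ratio scaling, after quantile normalization and with Gh and Prl left out of the sum. The share of all tested genes highest in somatotrope 3 among the somatotropes was larger under these scalings, at 27.3%, 27.4% and 18.7%. Which library was highest over all 6 did not: after median-ratio scaling it was somatotrope 3 for 8 of 8, and for 13.3% of tested genes. The members were chosen as a group of related genes and share libraries, so these counts are a description of 6 libraries.

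Markers of cells that secrete no pituitary hormone varied over the same libraries. All 10 leukocyte markers had a row, and their summed level was 264 to 5455 FPKM in somatotropes and 733 to 11498 FPKM in lactotropes, lowest in replicate 1 and highest in replicate 2 of both cell types. In all 3 pairs, 9 of the 10 were higher in the lactotrope (11.2% of tested genes), and their median log2 difference was -1.31. All 5 erythroid markers summed to 4259 FPKM in somatotrope 3 and 3529 FPKM in lactotrope 3, and to 5.33 to 325 FPKM in the other 4 libraries. The 10 stem and folliculostellate markers summed to 105 to 351 FPKM in somatotropes and 50.5 to 189 FPKM in lactotropes. Of these, 6 were higher in the somatotrope in all 3 pairs (22.9% of tested genes), and the 8 that were tested had a median log2 difference of 1.15. In limma 0 markers of any of these lists passed. The 6 endothelial markers summed to at most 3.31 FPKM in any library, with all 6 listed at 0 in lactotrope 3. The erythroid markers were high in both libraries of pair 3, while all 8 tested members were higher in the somatotrope of that pair than in its lactotrope. The part of these other cells in the members' levels was not tested.

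**Figure D4:**
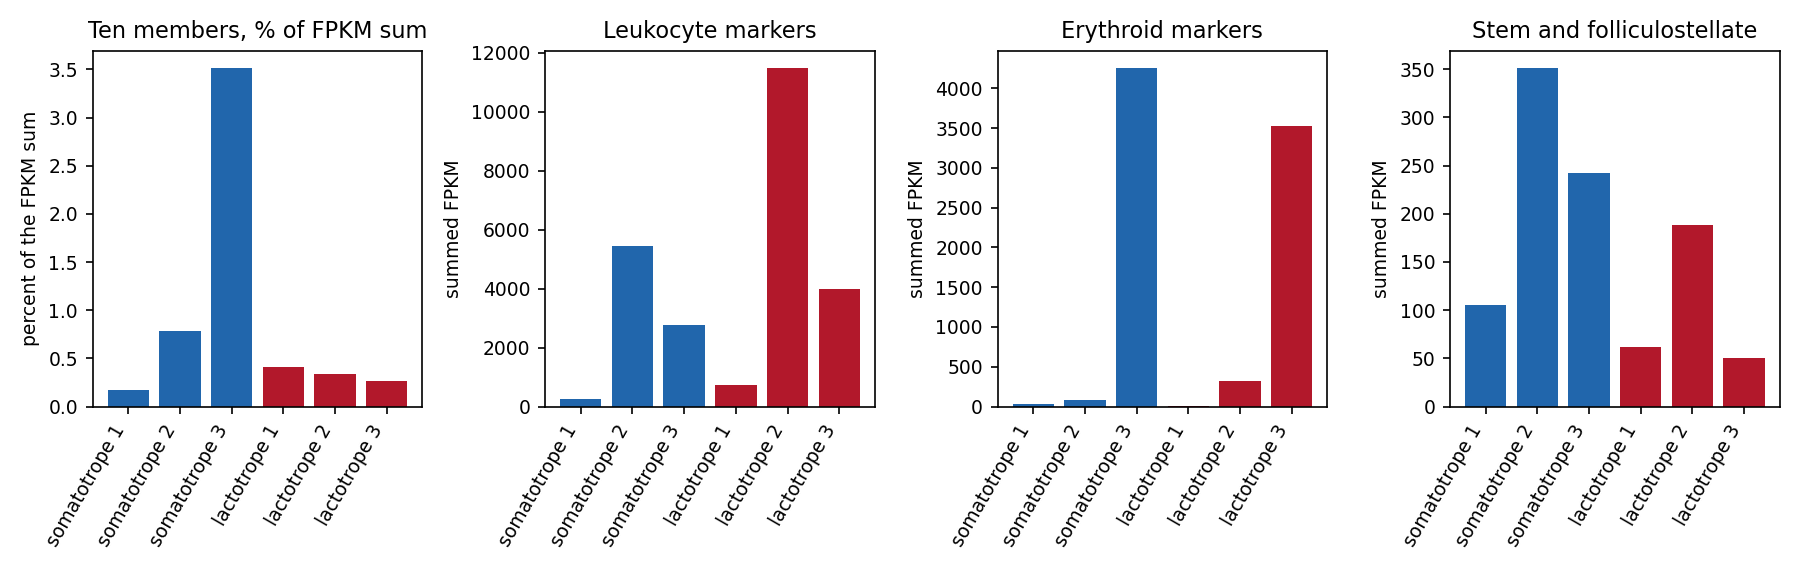
Bars from 0 for each library, blue for somatotropes and red for lactotropes: the 10 hormone and regulator genes as a percent of the FPKM sum over genes, and the summed FPKM of leukocyte, erythroid, and stem and folliculostellate markers. The 10 genes peak in somatotrope 3 at 3.52%, the leukocyte markers in lactotrope 2 at 11498 FPKM, the erythroid markers in both replicate 3 libraries and the stem markers in somatotrope 2 at 351 FPKM.

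The wider lists of genes of these lineages also gave no call. Of 14 tested corticotrope and melanotrope genes, 0 passed the test in either direction. In all 3 pairs, 3 were higher in the somatotrope (22.9% of tested genes) and 3 in the lactotrope (11.2%), and the median log2 difference was 0.36 against 0.18 over all genes. Scg5, a chaperone of prohormone convertase 2, had 485, 182 and 255 FPKM in somatotropes 1 to 3 and 810, 138 and 295 FPKM in lactotropes 1 to 3. Cpe, the carboxypeptidase that trims prohormone fragments, had 295, 274 and 200 FPKM against 424, 112 and 119 FPKM. Both are also used by other peptide-secreting cells, and neither had the peak in somatotrope 3 that Pomc showed. Pcsk2, which encodes prohormone convertase 2 and was chosen after its values were seen, did peak there. It had 0.663, 0.641 and 4.46 FPKM in somatotropes 1 to 3 and 1.73, 0.331 and 1.66 FPKM in lactotropes 1 to 3. Of the whole list, only Pomc, Pax7 and Pcsk2 were highest in somatotrope 3. Pcsk1 had 46.5, 2.49 and 14.1 FPKM in somatotropes 1 to 3 and 43.5, 2.45 and 3.68 FPKM in lactotropes 1 to 3. Nr4a1, Nr4a2, Neurod1 and Oprk1 were highest in lactotrope 1. Drd2, the dopamine receptor of melanotropes and lactotropes, had 0.464, 1.40 and 1.49 FPKM in somatotropes 1 to 3 and 11.9, 2.51 and 3.29 FPKM in lactotropes 1 to 3. Its log2 difference of -1.49 (SE 0.75), for which it was named, did not pass limma's test (adjusted p = 1.00, and 0.393 with the block). All 3 lactotropes lay above all 3 somatotropes for Drd2, as for 1.15% of tested genes. Il6st, the shared receptor chain for interleukin 6 and leukaemia inhibitory factor, had 21.5, 25.9 and 8.54 FPKM against 23.6, 15.1 and 0.476 FPKM. Avpr1b, the vasopressin receptor of corticotropes, chosen after its values were seen, was highest in lactotrope 1, at 2.50 FPKM, as Tbx19 and Crhr1 were. It had 0.338 and 0.238 FPKM in somatotropes 1 and 2. In somatotrope 3, the next highest library for Tbx19 and Crhr1, Avpr1b was listed at 0, as in lactotropes 2 and 3.

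Of 18 tested gonadotrope genes, 0 passed, and the median log2 difference was 0.32. In all 3 pairs, 4 lay above in the somatotrope (22.9% of tested genes) and 5 in the lactotrope (11.2%). The most abundant beside Cga were the immediate early genes Dusp1, a phosphatase of MAP kinases, and Egr1, a factor of Lhb transcription, which many cell types also induce. Dusp1 had 17.9, 34.7 and 231 FPKM in somatotropes 1 to 3 and 113, 186 and 495 FPKM in lactotropes 1 to 3, a log2 difference of -2.03 (SE 0.86). Egr1 had 29.0, 19.1 and 100.3 FPKM against 57.6, 79.4 and 162 FPKM, a difference of -1.22 (SE 0.68). Both were lower in the somatotrope library in all 3 pairs, pair 3 included, where all tested members were higher. Isl1, a LIM homeodomain factor of gonadotropes and thyrotropes, had 3.22, 8.49 and 5.95 FPKM in somatotropes 1 to 3, 1.12 and 2.30 FPKM in lactotropes 1 and 2 and a listed 0 in lactotrope 3. Its log2 difference was 1.77 (SE 0.74, adjusted p = 1.00 in limma and 0.282 with the block). All 3 somatotropes lay above all 3 lactotropes for Isl1, as for 2.51% of tested genes, and unlike for any of the 10 members. Isl1 was named for its large difference, while the members were chosen by symbol.

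Of 11 tested thyrotrope genes, 0 passed, and the median log2 difference was 0.45. In all 3 pairs, 2 lay above in the somatotrope (22.9% of tested genes) and 1 in the lactotrope (11.2%). Pou1f1, the factor thyrotropes share with somatotropes and lactotropes, had 245, 21.0 and 19.9 FPKM in somatotropes 1 to 3 and 258, 34.6 and 66.7 FPKM in lactotropes 1 to 3. Thrb, a thyroid hormone receptor that mediates feedback on Tshb, had 15.7, 4.39 and 1.02 FPKM against 44.0, 3.25 and 4.26 FPKM. Both were highest in replicate 1, as Tshb was in lactotropes. Tef, a factor of the PAR bZIP family, had 12.6, 6.73 and 11.9 FPKM against 14.8, 6.17 and 0.0350 FPKM. Trhr, the receptor for thyrotropin-releasing hormone, chosen after its values were seen, had 0.318 FPKM in the first somatotrope library, had 2.01 FPKM in the first lactotrope library and was listed at 0 in the other 4 libraries.

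The tested genes most like each member were named by the smallest root mean square difference of centred log2(FPKM + 1) values over the 6 libraries. Those of Pomc were Sparcl1 (0.956), Ptgds (0.968) and Apod (1.02), and Lhb came sixth. The measure is not adjusted for a gene's spread, which for Pomc within the cell types was larger than for 99.3% of tested genes. Those of Tbx19 were Acbd7 (0.482), Crhr1 (0.527) and Rnd3 (0.617), and those of Crhr1 included Acbd7 (0.254) and Egr4 (0.299). Acbd7 headed both lists, with 5.19 FPKM in lactotrope 1, 4.19 FPKM in somatotrope 3 and a listed 0 in lactotrope 3. Those of Lhb were the immediate early gene Egr2 (0.490), Dusp2 (0.622) and Lsp1 (0.636). Egr2 had 1.87, 5.93 and 31.2 FPKM in somatotropes 1 to 3 and 2.75, 7.28 and 14.8 FPKM in lactotropes 1 to 3, the same order as Lhb within each cell type. Those of Fshb were Emd (0.411), Ly6c2 (0.518) and Gfra4 (0.581), with Cga in place 9, and those of Cga included Snora69 (0.455) and Tceal5 (0.553), with Fshb in place 12. Those of Gnrhr were Chchd6 (0.168), Rsph9 (0.272) and Bhlhe40 (0.274), and those of Tshb were Srxn1 (0.330), Spdya (0.360) and Dner (0.369). Apart from Tbx19 with Crhr1, no member was among the 3 most like another.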

How the data were processed

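RNA was measured in 6 libraries of sorted pituitary cells, 3 of each cell type. Per the labels' protocols, the sort went into Trizol LS, and the NuGen Ovation V2 kit amplified the RNA. The submitters' processing notes name mm9 as the build and, as tools, TopHat, edgeR and bcl2fastq (2.17.1.14). For the counting of fragments and the use of strand, details are not given in these sources. The authors deposited FPKM values for 30399 transcript rows, which are not counts, so no count test was run. In 3 of the 6 deposited columns (somatotropes 2 and 3, lactotrope 3) many FPKM values carry a decimal more than in the others, for a reason not stated. A very abundant transcript lowers all others of its library in FPKM.

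The 889 rows without a symbol were left out, and each gene took its row with the highest mean. Those whose mean reached 1 FPKM were tested as log2(FPKM + 1) in R 4.3.3. The test was limma's (3.58.1), using the intensity trend, and Benjamini-Hochberg adjustment ran over all 11642 genes at 0.05. The log2(FPKM + 1) scale understates changes of low genes. Same-numbered libraries deviated together (correlations of 0.763, 0.613 and 0.341), so the replicate block is given beside results; the pairing comes from the titles and this check. At most 2.35% of values in any 2 libraries lay within 1% of each other. The code was tested on simulated data.

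The members and the 7 gene lists were chosen with earlier results of these data known. The genes named were all members, per list the 2 most abundant other genes and the 2 with the largest difference, and the 3 most like each member, of which 1 gene is not reported here. Some named genes of the marker lists are given by their sums. The alternatives were other pseudocounts, filters, scalings, weights and left-out libraries.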

Additional observations from a re-analysis of the deposited data

How the results depend on the processing

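In all alternatives run, limma called 0 of the tested members. Over all genes the count was 0, except for 9 with array weights (smallest adjusted p among the members 0.197, in a weight estimate that stopped before it converged) and, with 1 library left out, 0 to 3, the 3 without somatotrope 1. The replicate block gave 0 genes and 0 members and changed no call. The number of genes whose groups do not overlap was 426, and 207 with a mean of at least 5 FPKM, where fewer genes are tested. It was 444 to 639 with no filter on low values, with all rows of a symbol summed and under the other scalings. Of the members, 0 were apart in any of these settings. The count was not made for the other alternatives. With a library left out, members could be apart. Without somatotrope 1, Pomc had 1209 and 5758 FPKM in the somatotropes against 425 to 853 FPKM in the lactotropes. The direction of 6 members turned when libraries were left out. Without somatotrope 3 the difference turned to -0.79 for Pomc, -0.41 for Crhr1, -0.50 for Lhb and -0.92 for Fshb. Without lactotrope 3 it turned to -0.06 for Tbx19 and -0.44 for Crhr1, and without lactotrope 2 to -0.08 for Crhr1, -0.14 for Fshb and -0.39 for Tshb. Without replicate 3 of both cell types it was -1.02 for Pomc, -0.68 for Tbx19, -1.02 for Crhr1, -0.90 for Fshb and -0.06 for Tshb. The median over the members then fell to -0.37, against 0.07 over all tested genes. With 1 library left out, the differences ranged from -0.79 to 2.17 for Pomc, -0.06 to 1.95 for Tbx19, -0.44 to 1.00 for Crhr1, -0.50 to 1.82 for Lhb, -0.92 to 0.98 for Fshb and -0.39 to 1.40 for Tshb. Crhr1 turned to -0.01 with a pseudocount of 10 and Fshb to -0.05 with one of 0.1. Cga (0.11 to 1.94) and Gnrhr (0.25 to 2.46) stayed above 0 in each alternative run. Leaving Gh and Prl out of the sum was chosen after the data were seen. Median-ratio scaling moved the median difference of all genes from 0.18 to 0.04. Depth is unknown for 4 of the 6 libraries, which limits what the listed zeros of lactotrope 3 can show.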
